A study of Homo sapiens with 12 samples.

Results

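Polysomal RNA was compared with total RNA in HEK293 cells, a human embryonic kidney line, that carried the empty vector. The libraries used were chosen by their labels alone and are 6 of the 12 of the series, namely 3 of total and 3 of polysomal RNA, paired by replicate number, and each such pair is called a control culture. In the study, cells were transiently transfected by Lipofectamine2000 with 2 µg of a plasmid, either the empty vector (labelled wild type) or the same vector carrying HIS-HA-tagged RBMX, an RNA-binding protein, and all of them received cycloheximide before lysis. Lysates were cleared of nuclei and run on sucrose gradients of 15 to 50%, polysomal RNA came from the polysome fractions, and total RNA was a pool of 20% of every fraction. The other 6 libraries, 3 of total and 3 of polysomal RNA of the RBMX cells, are set beside the control cultures only where stated.

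The total pool holds the polysome fractions too, so each ratio below sets a part of the gradient against the whole of it. One sentence of the labels speaks of separate dishes for total and polysomal RNA and another of a single gradient, and which holds for a given replicate number was not settled. The model is 1 transiently transfected cell line. Since the values are relative within a library, a ratio of 0 on the log2 scale means that a transcript took the same share of both libraries, not that all its copies were on polysomes.

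Polysomes are mRNAs carrying several ribosomes, and their share of a transcript is a common measure of how actively it is translated. Transcripts of ribosomal proteins and of several elongation factors start with a run of pyrimidines, the 5′ terminal oligopyrimidine (TOP) motif, through which growing or starving cells move them into and out of polysomes as a group. Ferritin mRNAs carry an iron-responsive element, a hairpin in the leader that iron regulatory proteins bind and that holds the mRNA off ribosomes when iron is scarce. Noncoding transcripts, such as the spliced RNAs of snoRNA host genes, can meet ribosomes without being translated into a known protein.

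The deposited table listed 25268 gene symbols in FPKM (fragment counts divided by transcript length and by the size of the library). Of these, 14676 had a mean of at least 0.5 FPKM over the 12 libraries and were tested, 500 of them small RNA genes (microRNA, snoRNA and similar symbols). FPKM sums of the 6 control libraries ran from 817528 to 1903317, of which small RNA genes took 40.6 to 72.9%, and the read depth is unknown because no whole reads could be recovered from the low values. All 7 markers listed for HEK293 cells were detected (PAX2 at 2.49 to 4.12 FPKM, VIM at 217 to 577 FPKM), and all 9 markers of blood, liver, islet, endothelium, muscle and fibroblasts stayed under the filter, the highest at 0.478 FPKM. Across 14176 genes the Spearman correlation of the log2 ratios was 0.568 between cultures 1 and 2, 0.471 between 2 and 3 and 0.275 between 1 and 3, a description across genes. Culture 3 stood apart in level as well: HNRNPM, a splicing factor, was at 219, 225 and 75.1 FPKM in total RNA of cultures 1, 2 and 3.

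Over all 14676 genes, 6 passed an adjusted p of 0.05 in the paired limma fit on log2(FPKM + 1), 4 lower in polysomal RNA (0.0273% of the genes tested) and 2 higher (0.0136%), while 3085 had an unadjusted p under 0.05. Of the 6, 5 were small RNA genes and the other was RPSA, a 40S ribosomal protein. With the small RNA genes left out, 943 of 14176 genes passed, 780 lower (5.5%) and 163 higher (1.15%). Counts of calls in the classes below are to be read beside these shares, since a class with few calls can lie near or under them. The variance prior had 1.66 degrees of freedom with the small RNA genes and 8.06 without them, and this choice decides nearly all calls. Pairing matters as much, since without it the fit without small RNA genes called 6. Without culture 3 the counts were 0 over all genes and 1855 without small RNA genes, and without culture 2 they were 13 and 554. Unless another fit is named, the calls below are those of the paired fit without small RNA genes, and RPSA is the single gene outside the small RNAs that also passed over all genes. Beside them stand counts that use no test: 22.3% of the 14176 genes were lower in polysomal RNA in all 3 cultures, 25% were higher in all 3, 0.614% were at least 1.5-fold lower in all 3 and 0 were at least 1.5-fold higher in all 3.

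The depleted and the enriched side differed in kind. Of the 780 genes called lower, 500 were protein-coding in RefSeq and 170 were long noncoding RNAs, and the median log2 ratio of the 780 was -0.40. Of the 163 called higher, 157 were protein-coding and 1 was a long noncoding RNA, with a median of 0.29. The share of protein-coding genes was thus 64.1% and 96.3%, against 91.4% of all 14176. Depletion reached -3.28, for the noncoding RMRP, and -2.26 for FTL, the lowest protein-coding gene named. The highest ratio among the called genes was 0.42. Total RNA also holds the polysome fractions, so the 2 ends are not on an equal footing. The part of this in the unequal sizes was not tested.

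**Figure D1:**
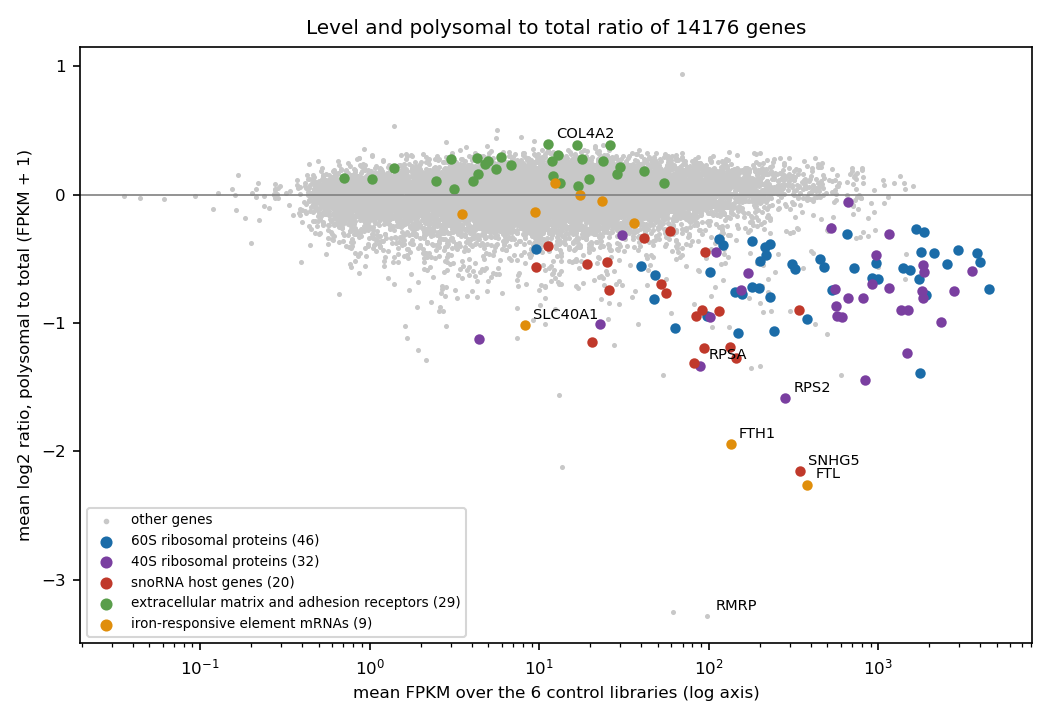
Mean FPKM over the 6 control libraries (log axis) against the mean log2 ratio of polysomal to total RNA over the 3 cultures, for the 14176 genes without small RNA genes. Coloured points are 5 of the gene lists, and the ribosomal protein and snoRNA host genes lie below 0, FTL at -2.26 and SNHG5 at -2.15, while the extracellular matrix genes lie above it.

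Transcripts of the cytosolic ribosome were depleted from polysomes as a class. All 46 tested genes of the 60S subunit were lower in polysomal RNA in all 3 cultures, 43 of them past the threshold, and 13 were at least 1.5-fold lower in every culture. Of the 32 genes of the 40S subunit, 31 were lower in all 3 cultures, 28 passed the threshold and 16 were at least 1.5-fold lower in every culture, and no ribosomal protein gene passed in the other direction. On the log2 scale and with the median of all genes of the culture subtracted, as for every class median below, the 60S median was -0.69, -0.60 and -0.44 in cultures 1, 2 and 3 (mean -0.58 ± 0.12, SD, n = 3). The 40S median was -0.93, -0.82 and -0.58 (mean -0.78 ± 0.18, SD, n = 3). The 40S median was lower than the 60S median in each culture, with differences of -0.24, -0.23 and -0.14 (mean -0.20 ± 0.052, SD, n = 3) that were not tested. In the RBMX cultures these differences were -0.081, -0.18 and -0.22.

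**Figure D2:**
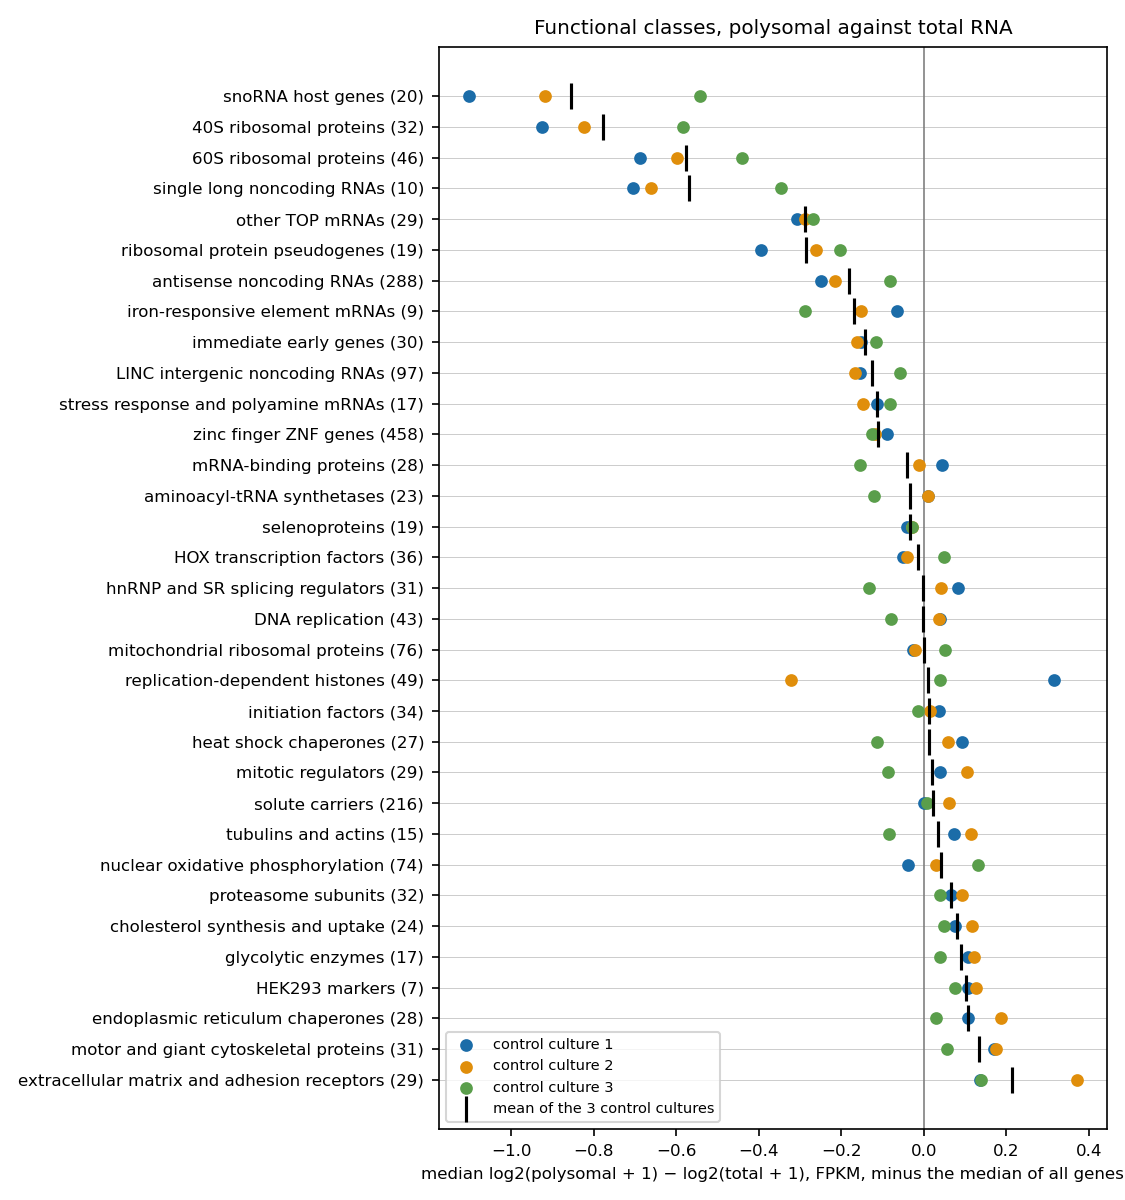
Class medians of the log2 ratio of polysomal to total RNA in control cultures 1, 2 and 3, with the median of all genes of that culture subtracted and the number of tested genes in brackets. The snoRNA host, ribosomal protein and single long noncoding RNA classes lie left of 0 in every culture, the extracellular matrix class right of it (0.21 on average), and the histone medians spread from -0.32 to 0.31.

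The subunits were not depleted evenly. RPSA, the laminin receptor-related protein of the 40S subunit, was at 129, 129 and 126 FPKM in total RNA and 48.8, 52.9 and 49.5 FPKM in polysomal RNA of cultures 1, 2 and 3. The total values lay far above all polysomal values, and the spread between cultures was small. Its log2 ratio was -1.33 ± 0.058 (SD, n = 3), 2.52-fold lower, and it was past the threshold both over all genes (limma adjusted p = 0.0363) and without small RNA genes (adjusted p = 5.91e-06). RPSAP58, a near-identical pseudogene that could share its reads, was at 292, 285 and 290.4 FPKM in total RNA and 116, 118 and 109 FPKM in polysomal RNA of cultures 1, 2 and 3, with a log2 ratio of -1.33 ± 0.066 (adjusted p = 7.24e-06). The 2 entries moved alike, so the value of either alone is uncertain.

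RPS2 and RPS12, also of the 40S subunit, had the lowest ratios of that list. RPS2 was at 359, 515 and 395 FPKM in total RNA and 113, 137 and 173 FPKM in polysomal RNA of cultures 1, 2 and 3, a log2 ratio of -1.58 ± 0.37 (adjusted p = 5.27e-05). RPS12 was at 1170.5, 1124 and 1368 FPKM in total RNA and 393, 369 and 613 FPKM in polysomal RNA of cultures 1, 2 and 3, a log2 ratio of -1.44 ± 0.25 (adjusted p = 4.59e-05). In both genes the groups did not overlap, and culture 3 held the highest polysomal value. At the other end of the 40S list, FAU, which encodes a ubiquitin-like protein fused to RPS30, was at 696, 641 and 684 FPKM in total RNA and 596, 616 and 737 FPKM in polysomal RNA of cultures 1, 2 and 3, groups that overlap, and RPS15 had a log2 ratio of -0.26 ± 0.19 (adjusted p = 0.108). Neither passed the threshold.

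Among the 60S genes RPLP1, an acidic protein of the stalk, was lowest. It was at 2569, 2459.6 and 2648 FPKM in total RNA and 896, 886 and 1171 FPKM in polysomal RNA of cultures 1, 2 and 3, a log2 ratio of -1.39 ± 0.19 (adjusted p = 4.59e-05). RPL12, a neighbour of the stalk, followed with a log2 ratio of -1.08 ± 0.15 (adjusted p = 4.59e-05). RPL41, the shortest of the ribosomal proteins, was at 158, 158 and 210.0 FPKM in total RNA and 75.8, 85.8 and 164 FPKM in polysomal RNA of cultures 1, 2 and 3, a log2 ratio of -0.76 ± 0.36 (adjusted p = 0.00376). In culture 3 its polysomal value came up to that of total RNA in cultures 1 and 2. RPL35 and RPL8, at -0.27 and -0.29, had the highest ratios of the list and did not pass (adjusted p = 0.13 and 0.11).

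The 29 tested TOP mRNAs outside the ribosome were depleted to a lesser extent, with 16 called lower, none higher, and 23 lower in all 3 cultures. Their median was -0.31, -0.29 and -0.27 (mean -0.29 ± 0.019, SD, n = 3). TPT1, the translationally controlled tumour protein, was at 253, 221 and 291 FPKM in total RNA and 90.5, 89.2 and 119 FPKM in polysomal RNA of cultures 1, 2 and 3. All total values exceeded all polysomal ones, and the log2 ratio was -1.35 ± 0.11 (adjusted p = 7.29e-06).

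PABPC1, the cytoplasmic poly(A)-binding protein, was at 174, 181 and 177 FPKM in total RNA and 91.4, 87.6 and 79.9 FPKM in polysomal RNA of cultures 1, 2 and 3, a log2 ratio of -1.03 ± 0.11 (adjusted p = 4.48e-05). EEF1A1, which brings aminoacyl-tRNA to the ribosome, was at 289.9, 285 and 247 FPKM in total RNA and 162, 159.8 and 117 FPKM in polysomal RNA of cultures 1, 2 and 3, a log2 ratio of -0.91 ± 0.14 (adjusted p = 0.000114). In both, the groups did not overlap. EEF2, the translocation factor, was at 1031, 994 and 667 FPKM in total RNA and 824, 819.7 and 549.8 FPKM in polysomal RNA of cultures 1, 2 and 3. Because culture 3 was low in both fractions the groups overlapped, although each culture was lower (log2 ratio -0.29 ± 0.027, limma adjusted p = 0.0474). The ratio of EEF2 was 0.13 after quantile normalization over all genes tested, small RNA genes included. NPM1 (nucleophosmin), VIM (vimentin) and EIF3K, a subunit of initiation factor 3, had ratios of -0.070 (0.075 after the same quantile normalization), -0.013 and 0.0095 and did not pass. The list thus ran from TPT1 near the ribosomal extreme to members that did not pass.

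The start of a TOP mRNA is shown because the class is defined by it. Each line gives 5 bases before the RefSeq start and 15 from it (GRCh38.p14, 5′ to 3′), with the pyrimidine run, C at the start followed by C or T, in capitals. The first 8 are ribosomal or other TOP mRNAs, SNHG5 and ZFAS1 are snoRNA hosts, and the last 3 have no such run.
RPSA (chr3:39406715-39406734, plus strand): cctgtCTTTTCCgtgctacc
RPS12 (chr6:132814564-132814583, plus strand): gaggcCTCTTTCCCTgccgc
RPLP1 (chr15:69452813-69452832, plus strand): gagagCCCCTTTCCTCagct
RPL41 (chr12:56116628-56116647, plus strand): cctttCTCTCggccttagcg
EEF1A1 (chr6:73521018-73521037, minus strand): acgttCTTTTTCgcaacggg
EEF2 (chr19:3985449-3985468, minus strand): gcgttCTCTTCCgccgtcgt
TPT1 (chr13:45341169-45341188, minus strand): tcggcCTTTTCCgcccgctc
NPM1 (chr5:171387844-171387863, plus strand): gcgtcCTTTCCCTggtgtga
SNHG5 (chr6:85678719-85678738, minus strand): tcggtCTTTTacgtcggcct
ZFAS1 (chr20:49278637-49278656, plus strand): tcgttCTTTCgcgtctgcgg
FTL (chr19:48965304-48965323, plus strand): ccctcgcagttcggcggtcc
ATF4 (chr22:39520554-39520573, plus strand): acggcagccatttctacttt
GAPDH (chr12:6535259-6535278, plus strand): tccctgtccggatgctgcgc

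A run of at least 5 bases stood at 1104 of 27305 RefSeq starts (4.04%), a share over all starts and not only those of tested genes. Among tested genes with a start sequence it stood at 24 of 37 60S genes, 18 of 25 40S genes, 16 of 22 other TOP genes and 5 of 17 snoRNA hosts. Since a start is annotated at 1 base, a missing run says only that these letters do not begin there. Within the 60S list the medians of genes with and without a run were -0.55 ± 0.14 and -0.55 ± 0.096, and within the 40S list -0.81 ± 0.19 and -0.62 ± 0.091 (SD, n = 3 cultures). Among the other TOP mRNAs the order was the opposite, -0.26 ± 0.012 with a run (16 genes) and -0.43 ± 0.082 without (6 genes), and among the snoRNA hosts the medians were -0.86 ± 0.29 with (5 genes) and -0.67 ± 0.25 without (12 genes). None of these differences was tested. Outside the ribosomal, TOP and snoRNA host lists, 250 genes with 5 or 6 bases had a median of -0.00035, 129 with 7 or 8 bases one of -0.042 ± 0.031, and 144 with 9 or more one of -0.011 ± 0.011. NPM1 and TPT1 begin with runs of 8 and 7 bases and lie far apart in their list.

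Ferritin mRNAs were the most strongly depleted protein-coding transcripts of the named genes. FTL, the light chain, was at 637, 599.6 and 653 FPKM in total RNA and 113, 117 and 169.9 FPKM in polysomal RNA of cultures 1, 2 and 3. Every polysomal value lay far below every total value, with culture 3 the highest of the 3, and the log2 ratio was -2.26 ± 0.29 (SD, n = 3), 4.79-fold lower. FTH1, the heavy chain, was at 193, 228 and 219 FPKM in total RNA and 46.6, 51.1 and 67.97 FPKM in polysomal RNA of cultures 1, 2 and 3, again with no overlap, and had a log2 ratio of -1.95 ± 0.24, 3.85-fold lower. Both passed without small RNA genes (limma adjusted p = 5.17e-06 for each), and both had adjusted p = 0.0987 over all genes.

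SLC40A1 encodes ferroportin, the iron exporter, whose leader also carries the element. It was at 10.2, 10.4 and 13.6 FPKM in total RNA and 4.83, 4.81 and 5.64 FPKM in polysomal RNA of cultures 1, 2 and 3, with no overlap, a log2 ratio of -1.01 ± 0.10 (adjusted p = 4.59e-05). Of the 9 iron-responsive element mRNAs listed, 3 passed, all lower, and 5 were lower in all 3 cultures. The list's median moved between cultures, -0.064, -0.15 and -0.29. CDC42BPA and SLC11A2, an iron transporter, whose elements lie behind the coding region, had the highest ratios, 0.095 and -0.0041 (adjusted p = 0.436 and 0.977).

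The element of the 3 depleted carriers is printed with its loop in capitals (GRCh38, transcript strand, 5′ to 3′). All but the last base of the loop was fixed by the search described below, so every match shares these letters, also those that did not pass.
FTL (chr19:48965335-48965363, plus strand): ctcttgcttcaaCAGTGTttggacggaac
FTH1 (chr11:61967574-61967602, minus strand): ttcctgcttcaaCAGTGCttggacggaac
SLC40A1 (chr2:189580661-189580689, minus strand): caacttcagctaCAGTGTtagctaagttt

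The pattern searched, on the transcript strand alone, was the letter C, any 5 bases, the loop CAGTGN and any 5 bases, in which the 5 bases either side of the loop had to pair, G with T allowed. It was present in the leaders of 31 of 18956 genes (0.164%), of which 23 were tested. Of these 23, FTL, FTH1 and SLC40A1 passed and were at least 1.5-fold lower in all 3 cultures, none passed in the other direction, and 8 were lower in all 3. The median log2 ratio of the 23 was -0.036, against 0.0016 for all other genes. PTMA (prothymosin alpha), which matched the pattern by its letters, was at 768, 775 and 782 FPKM in total RNA and 849, 846 and 859 FPKM in polysomal RNA of cultures 1, 2 and 3, higher in polysomal RNA in each culture (log2 ratio 0.14 ± 0.0089, adjusted p = 0.3). A match is a description of the sequence, not evidence of a working element.

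The snoRNA host genes had the lowest median of the classes with 7 or more tested genes. These genes carry small nucleolar RNAs in their introns, and their spliced RNA mostly encodes no known protein. All 20 tested were lower in all 3 cultures, 19 passed and 9 were at least 1.5-fold lower in every culture. The class median was -1.10, -0.92 and -0.54 (mean -0.85 ± 0.29, SD, n = 3), with the smallest depletion in culture 3.

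SNHG5 was at 495, 409 and 742 FPKM in total RNA and 77.1, 81.1 and 268 FPKM in polysomal RNA of cultures 1, 2 and 3. No polysomal value reached the lowest total value, and the log2 ratio was -2.15 ± 0.62, 4.44-fold lower (adjusted p = 0.000106). GAS5, known for building up in arrested cells, was at 111, 90.7 and 143 FPKM in total RNA and 33.05, 35.6 and 77.1 FPKM in polysomal RNA of cultures 1, 2 and 3, a log2 ratio of -1.31 ± 0.42 (adjusted p = 0.000244). LRRC75A-AS1, a further snoRNA host that was not in the list, was at 796, 784 and 1015 FPKM in total RNA and 258, 255 and 515 FPKM in polysomal RNA of cultures 1, 2 and 3, a log2 ratio of -1.40 ± 0.37 (adjusted p = 0.000143). In all 3 genes the culture 3 ratio was nearest to 0. SNHG17 and SNHG7 were the members nearest to 0, at -0.34 and -0.28, and SNHG7 alone missed the threshold (adjusted p = 0.0513).

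Other long noncoding RNAs were depleted less evenly. Of 10 tested single long noncoding RNAs, 7 passed, all lower, with a class median of -0.70, -0.66 and -0.35. OIP5-AS1, also called cyrano, was at 35.1, 36.6 and 42.8 FPKM in total RNA and 12.9, 13.1 and 25.8 FPKM in polysomal RNA of cultures 1, 2 and 3 (log2 ratio -1.17 ± 0.40, adjusted p = 0.000385). NEAT1, the scaffold of nuclear paraspeckles, was at 125, 109 and 179 FPKM in total RNA and 49.4, 49.5 and 114 FPKM in polysomal RNA of cultures 1, 2 and 3 (log2 ratio -1.03 ± 0.35, adjusted p = 0.000471), lower in each culture although polysomal RNA of culture 3 passed total RNA of culture 2. MALAT1, a nuclear speckle RNA, was at 13.6, 10.7 and 29.8 FPKM in total RNA and 14.6, 9.97 and 27.2 FPKM in polysomal RNA of cultures 1, 2 and 3, groups that overlap (log2 ratio -0.044 ± 0.12, adjusted p = 0.739), and TUG1 had a log2 ratio of 0.014 ± 0.077 (adjusted p = 0.917). The 2 nuclear RNAs were thus both found in the cleared lysates, and only NEAT1 passed.

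Of 288 antisense RNAs tested, 88 passed lower and none higher, and of 97 LINC intergenic RNAs 27 passed lower and none higher. Antisense transcripts overlap other genes, and the counting was not stated to use strand, so their values are uncertain. Their medians were -0.25, -0.21 and -0.082 and -0.15, -0.17 and -0.057. The lowest antisense entries were LRRC75A-AS1 and OIP5-AS1, given above, and the highest PCNA-AS1 and ST3GAL4-AS1, at 0.94 ± 1.79 and 0.31 ± 0.32 (adjusted p = 0.245 and 0.108). LINC00173 and LINC00888 were the lowest LINC genes, at -0.88 ± 0.089 and -0.80 ± 0.35 (adjusted p = 0.000106 and 0.00227), and LINC01000 and LINC00852 the highest, at 0.28 and 0.19. Over RefSeq classes, 28.1% of the 606 long noncoding RNAs were called lower against 3.86% of the 12951 protein-coding genes, and 50.2% against 20% were lower in all 3 cultures.

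RMRP and RPPH1, the RNA parts of the nuclear ribonucleases MRP and P, had the lowest ratios of the named genes outside the small RNA genes. RMRP was at 126, 142 and 259 FPKM in total RNA and 26.8, 5.34 and 28.1 FPKM in polysomal RNA of cultures 1, 2 and 3, and RPPH1 at 46.04, 140.1 and 153 FPKM in total RNA and 11.4, 4.799 and 15.7 FPKM in polysomal RNA of cultures 1, 2 and 3. In each culture polysomal RNA held far less, but the ratios of RPPH1 ran from -1.93 in culture 1 to -4.61 in culture 2. Their mean ratios were -3.28 ± 1.16 and -3.25 ± 1.34 (adjusted p = 0.000207 and 0.000523). The small RNA symbols did not cover these 2 genes, so they stayed in this fit. Over all genes neither passed (limma adjusted p = 0.172 and 0.173). In the RBMX cultures the same ratios were 0.88, 4.82 and -0.26 for RMRP and -0.61, 3.38 and -1.56 for RPPH1, with RMRP lower in 1 culture and higher in the other two. Both RNAs lack a poly(A) tail.

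The cold-shock domain proteins YBX1 and YBX3 led the mRNA-binding proteins. YBX1, which packages mRNA, was at 586, 582 and 539 FPKM in total RNA and 279, 288 and 281 FPKM in polysomal RNA of cultures 1, 2 and 3, with no overlap (log2 ratio -1.005 ± 0.067, adjusted p = 4.59e-05). YBX3, its relative, was at 270.2, 260.0 and 236 FPKM in total RNA and 162, 164 and 141 FPKM in polysomal RNA of cultures 1, 2 and 3, likewise without overlap (log2 ratio -0.71 ± 0.040, adjusted p = 0.000207). They were the 2 of 28 listed that passed, where 5.5% of all 14176 genes were called lower. The class median lay at 0.044, -0.011 and -0.15. UPF1 and LARP1, a protein that binds TOP mRNAs, had the highest ratios, 0.20 and 0.16, and did not pass (adjusted p = 0.0879 and 0.15).

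Of 34 initiation factors outside the TOP list, 1 passed lower and 1 higher, where 5.5% and 1.15% of all 14176 genes did. EIF2A, a factor for non-canonical initiation, had a log2 ratio of -0.50 ± 0.17 (adjusted p = 0.0044), and EIF4G1, the scaffold of the cap-binding complex, one of 0.26 ± 0.044 (adjusted p = 0.0384). EIF1 and EIF5B, at -0.27 and 0.26, did not pass (adjusted p = 0.0529 and 0.0856). The class median was 0.037, 0.014 and -0.014, close to that of all genes.

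The immediate early and ZNF zinc finger classes lay slightly below the median of all genes. Of 30 immediate early genes, 4 passed lower and none higher, and 19 were lower in all 3 cultures, with a median of -0.15, -0.16 and -0.12. ZFP36 and KLF10, which encode an mRNA-decay factor and a transcription factor, were lowest, at -0.59 ± 0.27 and -0.42 ± 0.19 (adjusted p = 0.0058 and 0.0139), and MYC and JUND were highest, at 0.055 and 0.035. Of 458 ZNF zinc finger genes, 52 passed lower and 1 higher, 233 (50.9%) were lower in all 3 cultures, and the median was -0.090, -0.12 and -0.12. ZNF121 and ZNF585A were lowest, at -0.69 ± 0.31 and -0.60 ± 0.21 (adjusted p = 0.00346 and 0.00218). ZNF316, at 0.29, was the gene called higher (adjusted p = 0.0445), and ZNF428, at 0.27, was next to it (adjusted p = 0.0567).

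Among 17 stress response and polyamine mRNAs, SAT1 and DDIT3 passed, both lower. SAT1, the polyamine acetyltransferase, had a log2 ratio of -0.55 ± 0.15 (adjusted p = 0.00241) and DDIT3, the transcription factor CHOP, one of -0.35 ± 0.17 (adjusted p = 0.0232). ATF4, whose leader holds upstream reading frames that limit its translation in unstressed cells, was at 571, 547 and 584 FPKM in total RNA and 433, 439.9 and 581 FPKM in polysomal RNA of cultures 1, 2 and 3. It was clearly lower in cultures 1 and 2 and nearly equal in culture 3, and it did not pass (log2 ratio -0.24 ± 0.20, limma adjusted p = 0.133). After quantile normalization with the small RNA genes included, the ratio of ATF4 was 0.024. UCHL1 and PPP1R15A, at 0.10 and 0.049, had the highest ratios and did not pass.

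**Figure D3:**
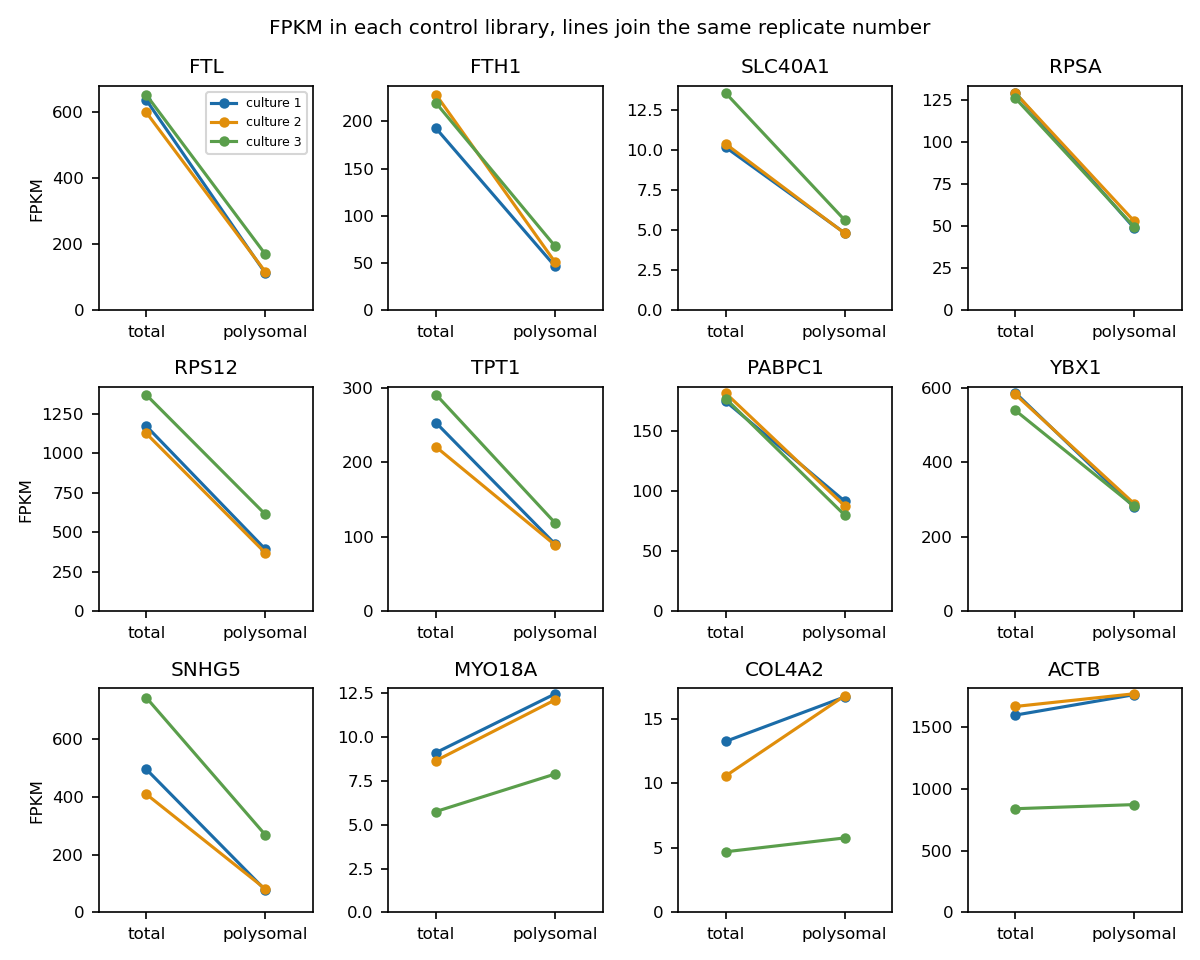
FPKM of 12 named genes in total and polysomal RNA of the 3 control cultures, with lines joining the same replicate number and every axis starting at 0. FTL, RPSA, TPT1, PABPC1, YBX1 and SNHG5 go down in every culture, MYO18A and COL4A2 go up in every culture, and ACTB differs far more between culture 3 and the others than between fractions.

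Extracellular matrix and giant cytoskeletal proteins stood on the polysome-enriched side, and so did the longest genes of any kind. The 576 genes with 4800 coding bases or more had a mean median of 0.13 ± 0.027 (SD, n = 3), and 60.2% were higher in all 3 cultures. Whether the 2 classes differ from other long genes was not tested. Of 29 extracellular matrix proteins and adhesion receptors, 4 passed higher and none lower, and 22 (75.9%) were higher in all 3 cultures. The median was 0.14, 0.37 and 0.14 (mean 0.21 ± 0.13, SD, n = 3), with culture 2 well above the other two. COL4A2, a chain of basement membrane collagen, was at 13.2, 10.6 and 4.69 FPKM in total RNA and 16.7, 16.8 and 5.76 FPKM in polysomal RNA of cultures 1, 2 and 3. It was higher in polysomal RNA in each culture, while culture 3 was low in both fractions so that the groups overlapped (log2 ratio 0.39 ± 0.20, adjusted p = 0.0215). COL6A1, a microfibrillar collagen, had a log2 ratio of 0.39 ± 0.20 (adjusted p = 0.022), and the integrins ITGAV and ITGB8 had the lowest of the list, 0.068 and 0.049 (adjusted p = 0.759 and 0.738).

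Of 31 motor and giant cytoskeletal proteins, 4 passed higher, none lower, and 17 were higher in all 3 cultures, with a median of 0.17, 0.17 and 0.056. MYH9, non-muscle myosin heavy chain, was at 50.01, 50.1 and 29.5 FPKM in total RNA and 62.5, 61.5 and 38.8 FPKM in polysomal RNA of cultures 1, 2 and 3 (log2 ratio 0.33 ± 0.048, adjusted p = 0.0133). FLNA, an actin crosslinker, had a log2 ratio of 0.32 ± 0.097 (adjusted p = 0.0191), while the kinesins KIF5B and KIF13A had ratios of -0.034 and -0.018. Every culture was above 0 for both leading genes, and in none did the change reach 1.5-fold.

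The 10 genes with the highest ratios among those called higher and with a mean of at least 5 FPKM were chosen after their values were seen. They included MYO18A (an unconventional myosin), COL4A2, COL6A1, AGRN (agrin, a basement membrane proteoglycan), NUMA1 (a spindle pole protein), PTPRF (a receptor phosphatase), CEP170B and RRBP1 (the ribosome-binding protein of the endoplasmic reticulum), with ratios from 0.42 down to 0.35. MYO18A was at 9.102, 8.65 and 5.75 FPKM in total RNA and 12.4, 12.1 and 7.88 FPKM in polysomal RNA of cultures 1, 2 and 3, 1.33-fold higher (log2 ratio 0.42 ± 0.023, adjusted p = 0.00535). NUMA1 was at 19.9, 18.97 and 15.97 FPKM in total RNA and 26.01, 25.3 and 20.99 FPKM in polysomal RNA of cultures 1, 2 and 3 (log2 ratio 0.38 ± 0.014, adjusted p = 0.00646). All 3 cultures agreed closely on both, and the polysomal values of NUMA1 lay above all of its total values.

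Secretory, metabolic and proteolytic classes lay slightly above the median of all genes, with few calls. Of 28 endoplasmic reticulum chaperones, 12 were higher in all 3 cultures and 2 passed, both lower, with a median of 0.11, 0.19 and 0.028. CALR (calreticulin) and HSP90B1, at 0.28 and 0.27, were highest and did not pass (adjusted p = 0.0567 and 0.115), whereas XBP1 and HERPUD1, of the unfolded protein response, passed at -0.27 ± 0.092 and -0.27 ± 0.054 (adjusted p = 0.04 and 0.0363). SEC61G, a translocon subunit, was lowest at -0.28 ± 0.21 and did not pass (adjusted p = 0.0879). Of 32 proteasome subunits, 16 were higher in all 3 cultures and none passed, and the median was 0.065, 0.091 and 0.040. PSMD3 and PSMA7 were highest, at 0.21 and 0.19, and PSMA1 and PSMD12 lowest, at -0.21 and -0.11.

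The cholesterol genes (24 tested) had 13 members higher in all 3 cultures and 1 called higher, SCAP, the sterol sensor that escorts SREBP, at 0.25 ± 0.066 (adjusted p = 0.0465). IDI1 and SC5D were lowest, at -0.12 and -0.11. The 17 glycolytic enzymes had no call and 8 members higher in all 3 cultures, from -0.14 for ALDOC to 0.17 and 0.22 for HK1 and PFKL. GAPDH, often used as a reference, was at 1323, 1290.4 and 671 FPKM in total RNA and 1259, 1314 and 604 FPKM in polysomal RNA of cultures 1, 2 and 3. It was lower in cultures 1 and 3 and higher in culture 2 (log2 ratio -0.065 ± 0.089, limma adjusted p = 0.661). After quantile normalization with the small RNA genes included, the ratio of GAPDH was 0.46. ACTB, cytoplasmic beta-actin, was at 1594, 1664 and 838 FPKM in total RNA and 1759.7, 1767 and 871 FPKM in polysomal RNA of cultures 1, 2 and 3, slightly higher in polysomal RNA in each culture and not past the threshold (log2 ratio 0.095 ± 0.044, adjusted p = 0.505).

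Several classes lay near the median of all genes. The 76 mitochondrial ribosomal proteins had a median of -0.027, -0.021 and 0.051 and 1 call, MRPL1, lower at -0.27 ± 0.10 (adjusted p = 0.0422), against 43 and 28 calls among the 46 and 32 genes of the cytosolic subunits. MRPL33 was lowest, at -0.57 ± 0.54 (adjusted p = 0.0558), and MRPL41 and MRPL28 highest, at 0.33 and 0.20. The 74 nuclear genes of oxidative phosphorylation had no call, -0.039, 0.031 and 0.13, and ran from UQCRH and ATP5E at -0.34 and -0.32 to COX5B and NDUFS6 at 0.21 and 0.21. The 23 aminoacyl-tRNA synthetases had 1 call, QARS, lower at -0.36 ± 0.083 (adjusted p = 0.0111), with DARS next at -0.18 and AARS and VARS highest at 0.16 and 0.14. The 27 heat shock chaperones had 1, HSPB1, lower at -0.47 ± 0.33 (adjusted p = 0.0289), with CCT8 next at -0.091 and HSPA1A and HSPA1B highest at 0.20 and 0.17.

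Proliferation classes were equally close to 0. Of 43 DNA replication genes 2 passed higher, LIG1 and POLE, a ligase and a polymerase of the replication fork, at 0.30 ± 0.096 and 0.29 ± 0.092 (adjusted p = 0.026 and 0.0304), and ORC3 and PRIM2 were lowest, at -0.22 and -0.20. Of 29 mitotic regulators 2 passed higher, MKI67 (the Ki-67 antigen) and INCENP (of the chromosomal passenger complex), at 0.32 ± 0.052 and 0.28 ± 0.042 (adjusted p = 0.0172 and 0.0302), and TTK and CDK1 were lowest, at -0.25 and -0.12. Of 31 hnRNP and SR splicing regulators HNRNPM passed higher, at 0.26 ± 0.029 (adjusted p = 0.0445), and SRSF6 lower, at -0.36 ± 0.18 (adjusted p = 0.0252), with SRSF2 and HNRNPUL1 next to them at -0.19 and 0.17. RBMX itself was at 147, 145 and 108 FPKM in total RNA and 146, 148 and 87.4 FPKM in polysomal RNA of cultures 1, 2 and 3 (log2 ratio -0.096 ± 0.18, adjusted p = 0.484), nearly equal in cultures 1 and 2 and lower in culture 3, and without culture 3 the ratio was 0.0068.

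Of 36 HOX transcription factors, HOXB2 and HOXA9 passed, both lower, at -0.55 ± 0.20 and -0.30 ± 0.086 (adjusted p = 0.0033 and 0.0241), while HOXB5 and HOXB6 were highest, at 0.24 and 0.25. The share of HOX genes called lower was near the 5.5% of all 14176 genes. The HOX median was -0.051, -0.042 and 0.049. Of 15 tubulins and actins 1 passed, TUBB3, lower at -0.27 ± 0.035 (adjusted p = 0.037), with TUBA4A next at -0.23 and TUBG1 and TUBB6 highest at 0.18 and 0.17. Of 216 solute carriers 6 passed lower and 1 higher, led by SLC40A1 and SLC25A23 (-0.70 ± 0.28, adjusted p = 0.00195) and, on the other side, by SLC38A10 (0.35 ± 0.18, adjusted p = 0.0277) and SLC39A4 (0.35 ± 0.27, adjusted p = 0.0587). Both counts lay below the shares of all 14176 genes, 5.5% lower and 1.15% higher.

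Of 19 selenoproteins, whose translation needs UGA recoding, 2 passed, both lower. SEPW1 was at 76.6, 71.6 and 82.7 FPKM in total RNA and 20.3, 22.7 and 49.6 FPKM in polysomal RNA of cultures 1, 2 and 3, groups that do not overlap, with culture 3 much nearer to 0 (log2 ratio -1.40 ± 0.60, adjusted p = 0.000857). C11orf31, now named SELENOH, had a log2 ratio of -0.49 ± 0.31 (adjusted p = 0.0199), and SEPN1 and SELM were highest, at 0.21 and 0.16. The 49 tested replication-dependent histones, whose mRNAs lack a poly(A) tail, had medians of 0.31, -0.32 and 0.038 in the 3 cultures and 1 call, the linker histone HIST1H1B, lower at -0.31 ± 0.14 (adjusted p = 0.0344). HIST1H2AK and HIST4H4 were lowest, at -0.63 and -0.59, and HIST1H2AH and HIST1H2BO highest, at 0.45 and 0.44. In RBMX culture 2 their median was 2.66.

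Ratios followed coding length in part. By GENCODE v29 coding length, the 576 genes with 4800 coding bases or more had a median of 0.15, 0.13 and 0.097 in cultures 1, 2 and 3, with 66 called higher and 1 lower, and 60.2% were higher in all 3 cultures. The 2159 genes of 2400 to under 4800 bases had a mean median of 0.052 ± 0.018 (SD, n = 3), and those of 600 to under 1200 and 1200 to under 2400 bases had -0.0061 and -0.0086. The 255 genes under 300 bases had medians of -0.21, -0.15 and 0.026, with 47 called lower and none higher. Direction thus agreed over the cultures for the longest genes and turned in culture 3 for the shortest.

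Ribosomal protein mRNAs are short, so their medians are set beside those of other short genes. With the ribosomal, TOP and snoRNA host lists left out, 1345 coding genes of 300 to under 600 bases had a mean median of -0.014 ± 0.051 and 244 under 300 bases one of -0.096 ± 0.12 (SD, n = 3), against -0.58 and -0.78 for the 60S and 40S lists. Median coding length was 892 bases for the coding genes called lower and 3699 for those called higher, against 1386 for all tested. Genes are not independent replicates, and these bins are a description across genes with no test.

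**Figure D4:**
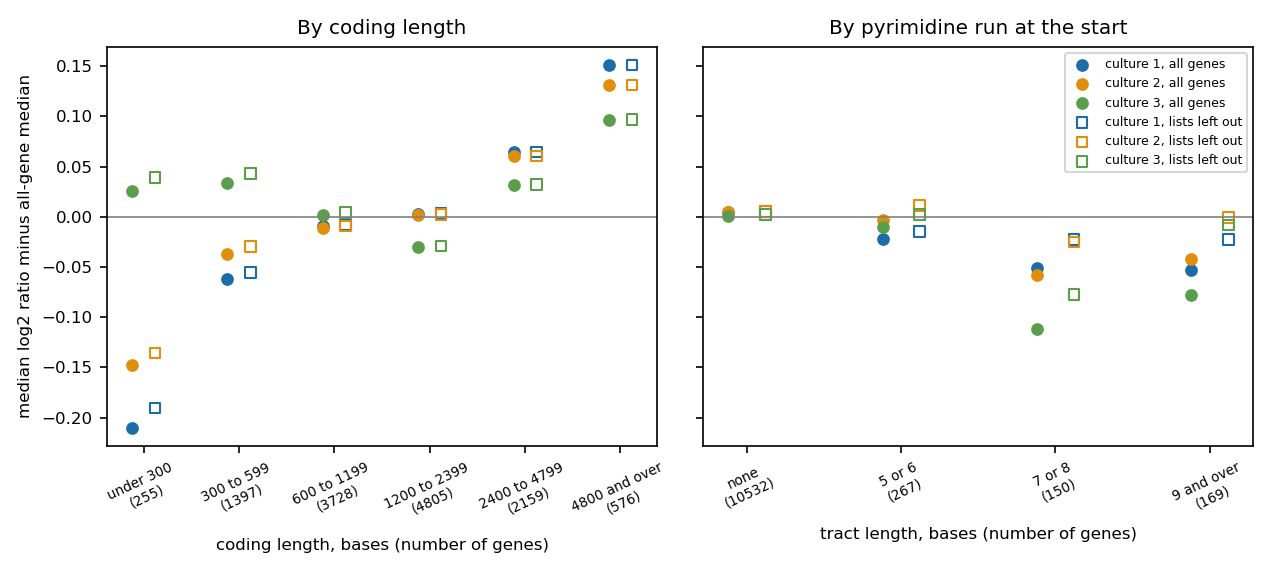
Median log2 ratio of polysomal to total RNA, with the median of all genes subtracted, by coding length (left) and by the length of the pyrimidine run at the RefSeq start (right), in control cultures 1, 2 and 3. Filled circles use all genes and open squares leave out the ribosomal, TOP and snoRNA host lists, and the longest genes lie above 0 in every culture (0.15, 0.13 and 0.097).

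Pseudogenes of ribosomal proteins, which could share reads with their parents, were lower too: of 19 tested 9 passed lower and none higher, with a median of -0.39, -0.26 and -0.20. COMMD3-BMI1, a readthrough of neighbouring genes that shares their exons, was the remaining named gene, at 18.4, 9.903 and 27.3 FPKM in total RNA and 10.8, 0.679 and 10.9 FPKM in polysomal RNA of cultures 1, 2 and 3, and its ratio in culture 2 was far from the other two (log2 ratio -1.56 ± 1.02, adjusted p = 0.00906). The lowest of the pseudogenes were RPSAP58 and RPL23P8 (-0.81), and the highest RPL23AP64 and RPL23AP53, at 0.30 and -0.022. Readthrough and pseudogene entries are uncertain as values of single transcripts. With a mean of at least 5 FPKM, 73 genes were at least 1.5-fold lower in all 3 cultures and 0 at least 1.5-fold higher.

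The 5 small RNA genes past the threshold over all genes were listed at 0 in one fraction of all 3 cultures. SNORD52 was at 24836, 18472 and 10130.4 FPKM in total RNA and listed at 0 in polysomal RNA, MIR1204 at 4574, 6846 and 7479 FPKM and 0, and MIR320A at 1300.0, 1977 and 2133 FPKM and 0. MIR939 was listed at 0 in total RNA and at 1186, 1477 and 1219 FPKM in polysomal RNA, and SNORD36B at 0 and 2846, 3386 and 2793 FPKM. An exact 0 in a table without counts can be a failed estimate, so no fold is given. Of the 500 small RNA genes tested, 318 were listed at 0 in one library and above 100 FPKM in another of the same group, against 0 of the other 14176 genes.

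The RBMX cultures share no library with the control cultures. Of the 780 genes called lower in control cells, 752 (96.4%) were lower in all 3 RBMX cultures, where 27.5% of all 14176 genes were. Of the 163 called higher, 156 (95.7%) were higher in all 3, where 29.1% of all genes were. The 60S medians of the RBMX cultures were -0.38, -0.83 and -0.56, the 40S medians -0.46, -1.01 and -0.78 and the snoRNA host medians -0.98, -1.24 and -1.01. FTL had ratios of -1.67, -2.10 and -2.10 there, FTH1 -1.35, -1.73 and -2.17 and RPSA -0.74, -1.44 and -1.16. The extracellular matrix medians were 0.12, 0.42 and 0.13, all above 0. In a fit over all 12 libraries, the ratio differed between RBMX and control cells for 5 genes, all small RNAs, and with the small RNA genes left out for 0 of 14176 (limma, 345 with an unadjusted p under 0.05). A missing call does not show equal ratios. With the median of all genes subtracted, RMRP was at -3.29 ± 1.15 in control and 1.81 ± 2.69 in RBMX cultures (SD, n = 3), uncalled. The SD of the ratios across genes was 0.40 in RBMX culture 2, against 0.19 and 0.21 in RBMX cultures 1 and 3.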

How the data were processed

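Values were FPKM, 1 per gene symbol and library, as deposited by the authors. The submitters' processing notes name CASAVA 1.8, TopHat2 2.0.13, Cufflinks 2.2.1, Cuffnorm and the build hg19; their roles and the annotation are not given there. The study's methods instead describe alignment to hg38 with bowtie2 or STAR and gene counts normalized by library size; which of the accounts holds for the FPKM table was not settled. Libraries were made with an Illumina TruSeq RNA kit from 500 ng of RNA. Depth is unknown: in each of the other libraries, the ratio to control total library 1 (the reference) that recurred most among values up to 0.05 FPKM held for 11.5 to 23.5% of them, so no reads were recovered and no count test was run.

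FPKM were used as log2(FPKM + 1), which understates changes of low genes. Genes with a mean of at least 0.5 FPKM over the 12 libraries were tested with limma 3.58.1 (R 4.3.3; lmFit, eBayes with trend), with replicate number as a block and Benjamini-Hochberg adjustment at 0.05. Ratios in the text are means over 3 cultures ± SD. The 6 control libraries entered this fit, and all 12 the fit of the difference between vectors. The script was tested on simulated data. Figures were drawn with matplotlib.

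Pairing follows the replicate number, since the protocol pools total RNA from the fractions of the gradient. Deviations of same-numbered control libraries from their group means correlated at 0.0758, 0.0991 and 0.311 over all genes tested and at 0.619, 0.719 and 0.848 without small RNA genes. In RBMX cultures 1, 2 and 3 they correlated at 0.00177, 0.0219 and 0.0893 over all genes tested. Without small RNA genes these were 0.231, 0.021 and 0.684, so the pairs of RBMX culture 2 shared almost no deviation. That the libraries are separate cultures is stated by the study.

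Members and gene lists were chosen with earlier results of these data known, so lists carry counts and medians and no test. Genes named were those past the threshold, the 10 lowest of the genes at least 1.5-fold lower in all 3 cultures with a mean of at least 5 FPKM (none was as much higher, so the 10 highest called genes were chosen after their values were seen), the 2 lowest and 2 highest of each list described, and a fixed set of 20; a few genes that this rule names are not reported here. Symbols matched RefSeq for 24075 of 25268. Starts came from RefSeq (GRCh38.p14) and coding lengths and leaders from GENCODE v29 (GRCh38), used for letters, lengths and classes only; protein lengths, planned for the length classes, were not used here. The 13 mitochondrially encoded mRNAs of that list had no row under their symbols, and 3 of 5 RNase and 7SK RNAs had none. The alternatives tried were no block, another pseudocount, other filters, 2 rescalings, other variance priors, all 12 libraries, small RNA genes left out and each culture left out.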

Additional observations from a re-analysis of the deposited data

Results flagged for a closer look

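The polysomal to total ratio of 5 small RNA genes differed between RBMX and control cells in a test of the difference itself (limma over all 12 libraries, adjusted p = 0.000131 for SNORD52, 1.69e-05 for MIR1204, 2.3e-05 for MIR320A, 0.000534 for SNORD27 and 8.73e-05 for SNORD28). On the log2(FPKM + 1) scale SNORD52 was at -14.03 in the control cultures and -0.36 in the RBMX cultures, MIR1204 at -12.59 and 0, and MIR320A at -10.78 and 0. SNORD27 and SNORD28, named after their values were seen, went the other way, from -0.099 to -12.31 and from 11.75 to -12.29. These sizes are those of values listed at 0 set against the pseudocount and give no fold. Of the 500 small RNA genes tested, 318 were listed at 0 in 1 library and above 100 FPKM in another of the same group, and its part in these differences was not tested.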

How the results depend on the processing

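Pairing decides much of what passed: without the replicate block 12 genes passed over all genes (9 lower), and with small RNA genes left out 6, all lower and 0 higher, an alternative added after the data were seen (3492 had an unadjusted p under 0.05 in the paired limma fit). Over all genes, the count of 6 became 532 (489 lower, 43 higher) with a robust variance prior, 71 (70 lower, 1 higher) with all 12 libraries and culture as block, 943 (780 lower, 163 higher) with small RNA genes left out, and 2 lower without a filter on low values. Leaving out 1 culture gave 0 to 18 calls, 0 to 7 lower and 0 to 11 higher, with 0 in each case without culture 3. With small RNA genes left out the range was 554 to 1855, of which 511 to 1252 were lower and 43 to 603 higher, the lowest without culture 2 and the highest without culture 3, and quantile normalization gave 312 higher.

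After quantile normalization without the small RNA genes the 40S median was -0.53 and that of the other TOP mRNAs -0.22. Without a filter the single long noncoding RNA median was -0.30 and the ZNF median -0.080. Quantile normalization over all genes tested, small RNA genes included, reversed EEF2 (0.13), NPM1 (0.075), ATF4 (0.024) and GAPDH (0.46). For these genes the values without small RNA genes are not given. Leaving out culture 3 reversed RBMX (-0.16 to 0.0068 over the cultures left out). The difference between vectors was called for 3 genes without the block and 0 with small RNA genes left out. Of 583 values of 42 named genes, 503 kept direction and side of the threshold, 63 newly passed, 12 no longer passed and 5 reversed. These counts are set against the fit over all genes, in which 6 genes passed, not against the fit that gave the calls above. For the other named genes, keeping the side of the threshold meant not passing, as for FTL in 10 of 14 settings. The 503 are thus no measure of how stable those calls are. RPSA, at adjusted p = 0.0363, was at 0.127 without a filter and at 0.195, 0.172 and 0.145 without culture 1, 2 or 3. The cause of these changes was not tested.

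The read depth is unknown, so the error of low values cannot be given, and 3 cultures of 1 cell line limit the precision of every ratio.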
